A study of Mus musculus with 10 samples.

Results

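A set of 10 genes for the AP-1 and EGR transcription factors (Fos, Fosb, Fosl2, Jun, Junb, Jund, Atf3, Egr1, Egr2 and Egr3) were followed in mouse bone marrow-derived macrophages (BMDMs) after 4 h of stimulation through TLR7, the endosomal receptor for single-stranded RNA. The genes were chosen by name, as the 10 of 55573 genes in the normalized count table that carry these symbols, and 10 of 10 passed the filter on low values (at least 1 CPM, the read count of a gene scaled to the size of its library, in at least 2 libraries). Fosb and Egr3 passed it through the vehicle and PNPi+dG/rG libraries alone, so these genes had to differ between groups to be tested. Their values are described below. They are left out of the counts and medians over the members, which cover the other 8, each at 1 CPM or more in every library. Only the section on how the results depend on the processing counts all 10.

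The BMDMs came from female wild-type C57BL/6 mice and were grown with M-CSF. There were 5 groups of 2 libraries each, labelled as biological replicates. The groups were vehicle, 5 µg of poly-uridine RNA carried by the lipid DOTAP (polyU), 1 µM of the purine nucleoside phosphorylase inhibitor ulodesine with 5 µM deoxyguanosine and 5 µM guanosine (PNPi+dG/rG), all of these agents together (PNPi+dG/rG+polyU), and 1 ng/mL of the synthetic TLR7 ligand R848. The labels do not say whether the replicates were separate mice or cultures, so the p-values measure the spread between these libraries. Nor do they say whether vehicle cells received DOTAP, so polyU and its carrier cannot be told apart. Libraries held 14128123 to 38392588 reads on genes, the fewest in PNPi+dG/rG+polyU and the most in PNPi+dG/rG, and 3 reads corresponded to between 0.0781 and 0.212 CPM. The 8 macrophage markers examined, among them Adgre1, Csf1r and Lyz2, were detected in every group and summed to 15196 to 18027 CPM. Lyz2 was the largest part (7756 to 11494 CPM), and the sum hid changes in single markers. Mertk was at 40.3 and 40.6 CPM in vehicle, 9.84 and 8.16 CPM in PNPi+dG/rG+polyU and 5.36 and 5.66 CPM in R848. Cd14 was at 466 and 482, 1061 and 1124, and 2985 and 3136 CPM in these groups. Fcgr1 was at 161 and 166 CPM in vehicle and 76.2 and 80.1 CPM in R848. No other marker of the 8 was called against vehicle in these groups, by the thresholds given below. The 6 fibroblast markers examined summed to 0.450 to 1.26 CPM in the 8 libraries of the other 4 groups and to 102.6 to 109.9 CPM in R848. That R848 sum was carried by the collagens Col1a1 (mean 55.0 CPM), Col1a2 (40.5 CPM) and Col3a1 (7.25 CPM). Dcn was at 1.95 and Pdgfra at 1.48 CPM there, and Lum at 0 and 2 reads. The 6 granulocyte markers summed to 22.99 to 25.2 CPM in R848 and 2.83 to 8.42 CPM elsewhere. The R848 sum was carried by S100a8 (mean 22.2 CPM). Camp was also highest in R848 (mean 1.86 CPM), with a mean of 0.71 CPM in PNPi+dG/rG+polyU and at most 0.19 CPM in any other library. S100a9 was lower in R848 than elsewhere (0 and 1 reads). Mpo and Elane were at 0 reads in R848, and Ly6g was at 0 in every library. The 5 dendritic cell markers summed to 2.96 to 3.77 CPM in PNPi+dG/rG+polyU and R848 and 0.214 to 0.640 CPM elsewhere. The higher sums were carried by Ccr9 (means of 2.40 and 3.27 CPM), with Flt3, Xcr1 and Siglech at 0 reads in both of these groups. Zbtb46 had a mean of 0.67 CPM in PNPi+dG/rG+polyU and of 0.093 to 0.20 CPM in the other groups, R848 included. The part that these transcripts played in the R848 values below was not tested. In such bulk libraries, fewer cells of a type and less RNA per cell cannot be told apart.

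AP-1 is a dimer of basic leucine zipper proteins. JUN proteins (Jun, Junb, Jund) pair with each other or with FOS proteins (Fos, Fosb, Fosl2), FOS proteins need a JUN partner to bind DNA, and ATF3 pairs with JUN proteins and often represses its targets. The EGR proteins are zinc finger factors that bind GC-rich promoters and are held in check by the NAB corepressors. Most of these genes are immediate early genes, which MAP kinases switch on within minutes without new protein synthesis and which are usually switched off again soon after, so a level at 4 h is a late point of such a response.

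The promoters of 4 members are shown because these genes moved in different directions under the same stimulation, Fos, Fosb and Jun downwards and Junb upwards in both PNPi+dG/rG+polyU and R848 (Fos in R848 under 2-fold once the libraries were centred on their medians). Each line gives the 250 bases before the RefSeq transcription start (GRCm38.p6), read 5′ to 3′ on the strand of the gene, with the motif matches described next in capitals.
Fos, chr12:85473640-85473889, plus strand: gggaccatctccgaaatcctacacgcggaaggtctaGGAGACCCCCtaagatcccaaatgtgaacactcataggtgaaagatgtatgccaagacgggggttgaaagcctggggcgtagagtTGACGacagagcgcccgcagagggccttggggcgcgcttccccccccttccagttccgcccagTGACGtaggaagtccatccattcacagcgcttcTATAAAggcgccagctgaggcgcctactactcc
Fosb, chr7:19310046-19310295, minus strand: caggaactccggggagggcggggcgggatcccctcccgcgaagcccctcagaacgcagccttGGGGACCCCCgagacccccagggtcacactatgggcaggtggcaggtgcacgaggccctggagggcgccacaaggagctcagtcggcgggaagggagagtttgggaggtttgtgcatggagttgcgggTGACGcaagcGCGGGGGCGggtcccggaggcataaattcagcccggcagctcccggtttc
Jun, chr4:95052223-95052472, minus strand: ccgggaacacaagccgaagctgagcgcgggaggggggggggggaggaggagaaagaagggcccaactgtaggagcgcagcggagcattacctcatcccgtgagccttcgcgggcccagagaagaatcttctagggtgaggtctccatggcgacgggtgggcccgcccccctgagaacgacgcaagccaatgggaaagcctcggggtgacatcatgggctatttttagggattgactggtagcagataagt
Junb, chr8:84978749-84978998, minus strand: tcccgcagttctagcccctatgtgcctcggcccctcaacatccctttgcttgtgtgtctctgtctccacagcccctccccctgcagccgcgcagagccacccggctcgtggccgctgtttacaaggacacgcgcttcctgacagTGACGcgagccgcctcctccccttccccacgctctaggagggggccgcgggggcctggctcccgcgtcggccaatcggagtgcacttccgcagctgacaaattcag
Both strands were searched for the AP-1 element TGANTCA, the cyclic AMP response element TGACGTCA and its core TGACG (which lies within it), the EGR element GCGNGGGCG, the TATA box TATAAA and, by name, the kappaB element and the CArG box. The Fos window held the core TGACG at 129 and at 66 bases before the start, a kappaB match at 214 and TATAAA at 33. In the Fosb window TGACG lay at 60 bases, the EGR letters at 50 and a kappaB match at 188. Junb held TGACG at 106 bases and no other match, and the Jun window held none of these letters. Only exact letters were counted, so near matches, such as tgacatca in the Jun window beside TGACGTCA, were left out. Of 27025 promoters of this length, 17.9% held TGACG, 3.75% kappaB, 4.65% the EGR letters, 13.0% TATAAA, 6.87% TGANTCA, 1.62% TGACGTCA and 1.40% a CArG box. Of the other members with a sequence, Atf3 held TGACG and the RefSeq window of Jund held none. That Jund window ends at chr8:70697738, well before the GENCODE start of the gene at 70698949, and the bases next to the GENCODE start were not searched. The windows of 4 of the 5 RefSeq starts of Egr2 held a CArG box, with the same letters in those of starts 3, 4 and 5, which each held TGACG on both strands as well. The RefSeq window of Fosl2 held the EGR letters and overlapping kappaB matches, but all 250 of its bases lie in an untranslated first exon of the GENCODE annotation, so it is not shown. These matches are letters in a window of 250 bases and were not tested for binding. Bases outside the windows were not searched, so an element missing from a window may lie farther away.

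Junb had the largest increase among the JUN genes. Junb (ENSMUSG00000052837, chr8:84974484-84978718, minus strand, GRCm38), a JUN protein known both to activate and to restrain AP-1 targets, was at 175 and 194 CPM in vehicle, 294 and 300.4 CPM in polyU, 219.8 and 239 CPM in PNPi+dG/rG, 963 and 961 CPM in PNPi+dG/rG+polyU, and 979 and 1038 CPM in R848. No 2 groups overlapped, and the PNPi+dG/rG+polyU and R848 libraries stood far above the other 6. Against vehicle, Junb rose by 2.39 on the log2 scale in PNPi+dG/rG+polyU (SE 0.05, limma adjusted p = 2.10e-15) and by 2.45 in R848 (SE 0.05, adjusted p = 6.37e-16), that is 5.22-fold and 5.47-fold. Here and below a gene is said to rise or fall when the limma adjusted p was under 0.05 and the change at least 2-fold. PolyU alone gave 0.69 (SE 0.05, adjusted p = 6.05e-08) and PNPi+dG/rG alone 0.31 (SE 0.05, adjusted p = 0.0109), both under 2-fold. Junb shares 351 bases with Prdx2 on the opposite strand, a gene that ran from 57.2 to 128.7 CPM over all libraries, less than the span of Junb. The strand setting of the read counting is not given in the sources used here.

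Jun moved the other way. Jun (ENSMUSG00000052684, chr4:95049034-95052222, minus strand), the founding AP-1 subunit and a strong activator, was at 295 and 316 CPM in vehicle, 267 and 274 CPM in polyU, 292 and 283 CPM in PNPi+dG/rG, 78.3 and 73.6 CPM in PNPi+dG/rG+polyU, and 94.8 and 98.3 CPM in R848. The 4 libraries of the last 2 groups were the lowest, the highest of them at 98.3 CPM, and the lowest of the other 6 was at 267 CPM. Jun fell by 2.01 in PNPi+dG/rG+polyU (SE 0.05, limma adjusted p = 8.10e-15) and by 1.66 in R848 (SE 0.05, adjusted p = 3.51e-14). The R848 fall was 1.07 when each library was centred on the median of the genes tested, and remained a call. Jund (ENSMUSG00000071076, chr8:70698949-70700616, plus strand), the JUN gene that most cells express without stimulation, was at 133 and 160.4 CPM in vehicle, 128 and 129 CPM in polyU, 159 and 154 CPM in PNPi+dG/rG, 237 and 235 CPM in PNPi+dG/rG+polyU, and 249 and 267 CPM in R848. The last 4 libraries were the highest, but the log2 differences from vehicle, 0.69 and 0.82, were under 2-fold (limma adjusted p = 8.47e-07 and 8.02e-08). With the libraries centred on their medians, Jund in R848 was 1.41 above vehicle and passed the 2-fold threshold.

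**Figure D1:**
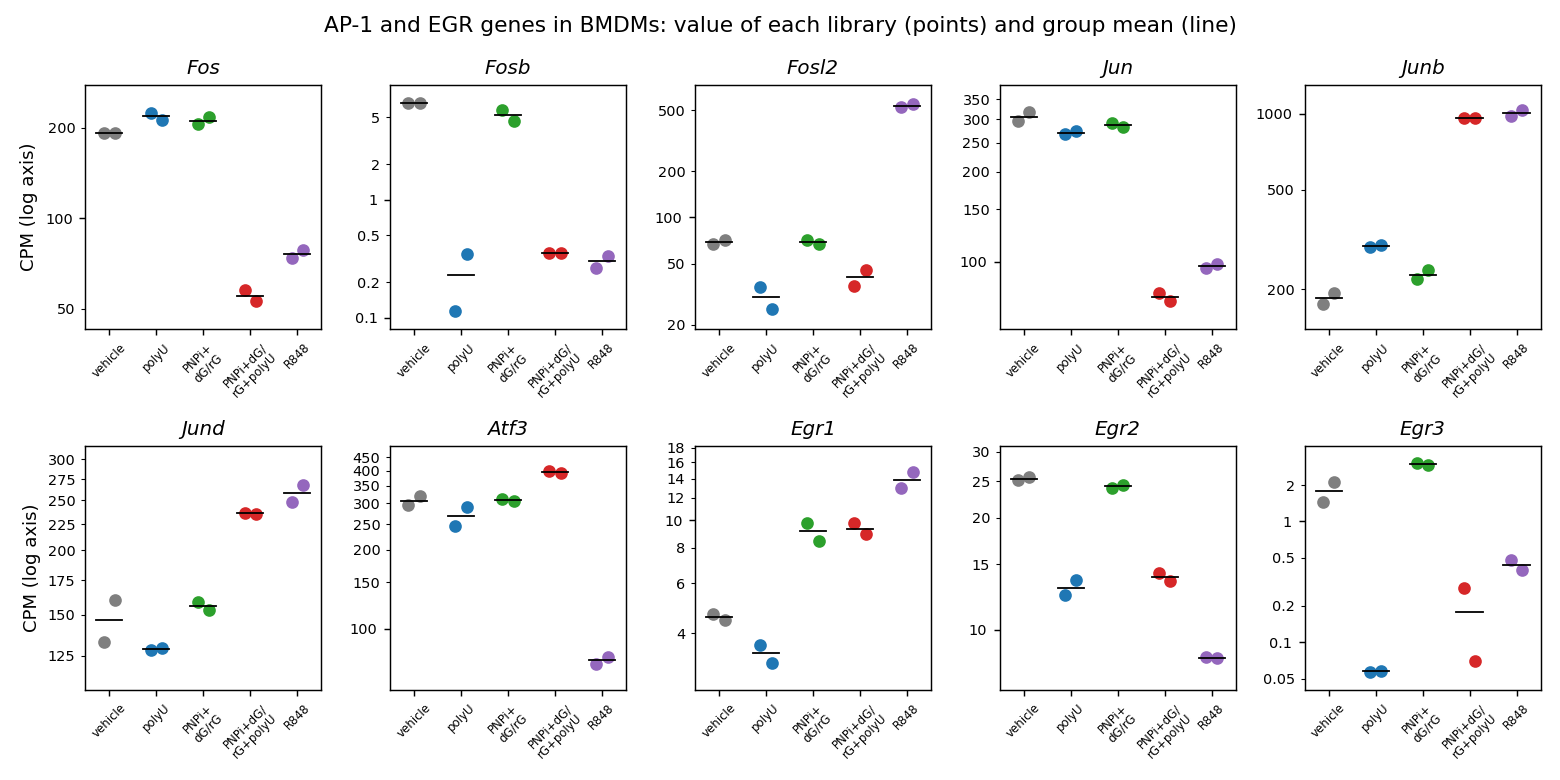
CPM of each of the 10 genes (log axis, scale set per gene) in the 2 libraries of each group (points) with the group mean (line). Junb stands at 961 CPM or more in PNPi+dG/rG+polyU and R848, Fosl2 at 528 CPM or more in R848 alone, and Fosb and Egr3 are high in vehicle and PNPi+dG/rG and near the detection floor in the other groups.

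The make-up of the JUN genes therefore shifted. In CPM per kilobase of exon, Jun gave 37.3% and 35.5% of the sum of Jun, Junb and Jund in the vehicle libraries, and Junb 30.6% and 30.1%. In PNPi+dG/rG+polyU Jun gave 4.19% and 3.97% and Junb 71.5% and 71.8%, and in R848 Jun gave 4.92% and 4.80% and Junb 70.4% and 70.2%. Within each library, which no scaling between libraries can change, the log2 ratio of Junb to Jun CPM was -0.75 and -0.71 in vehicle, 0.14 and 0.13 in polyU, -0.41 and -0.25 in PNPi+dG/rG, 3.62 and 3.71 in PNPi+dG/rG+polyU, and 3.37 and 3.40 in R848. The summed level of the JUN genes was 248 and 279.5 CPM per kilobase in vehicle, 288 and 294 in polyU, 282 and 285 in PNPi+dG/rG, 585 and 582 in PNPi+dG/rG+polyU and 604 and 642 in R848.

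Among the FOS genes, Fos was lower in PNPi+dG/rG+polyU and in R848, and Fosl2 was higher in R848 alone. Fos (ENSMUSG00000021250, chr12:85473890-85477273, plus strand), the classical immediate early gene, was at 193 and 192 CPM in vehicle, 225 and 212 CPM in polyU, 205 and 218 CPM in PNPi+dG/rG, 57.5 and 53.0 CPM in PNPi+dG/rG+polyU, and 73.7 and 78.3 CPM in R848. The 4 libraries of the last 2 groups lay far below the other 6, without overlap. Fos fell by 1.80 in PNPi+dG/rG+polyU (SE 0.06, limma adjusted p = 1.30e-13) and by 1.34 in R848 (SE 0.06, adjusted p = 2.38e-12), but in R848 the fall was 0.75 with centred libraries, under 2-fold. PolyU gave a difference of 0.18 (adjusted p = 0.0158) and PNPi+dG/rG one of 0.14 (adjusted p = 0.434).

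Fosl2 (ENSMUSG00000029135, chr5:32135801-32157842, plus strand) encodes FRA2, a FOS protein that lacks the strong activation domain of FOS. It was at 66.8 and 71.1 CPM in vehicle, 34.9 and 25.2 CPM in polyU, 71.4 and 66.7 CPM in PNPi+dG/rG, 35.6 and 45.6 CPM in PNPi+dG/rG+polyU, and 528 and 545 CPM in R848. The R848 libraries were the highest by far, and the 4 libraries that received polyU the lowest. Fosl2 rose by 2.96 in R848 (SE 0.17, limma adjusted p = 4.20e-06), a 7.78-fold difference and the largest rise of any member against vehicle. It fell by 1.22 in polyU (SE 0.17, adjusted p = 0.00189), a call lost at -0.98 without polyU replicate 2. With PNPi+dG/rG+polyU it was 0.77 below vehicle (SE 0.17, adjusted p = 0.00712), under 2-fold.

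Fosb (ENSMUSG00000003545, chr7:19302696-19310051, minus strand), a FOS protein best known from the brain, was a low gene whose reads nearly vanished in every group that received polyU or R848. It was at 6.57 and 6.69 CPM (117 and 119 reads) in vehicle, 0.114 and 0.349 CPM (2 and 6 reads) in polyU, 5.83 and 4.71 CPM (224 and 176 reads) in PNPi+dG/rG, 0.354 and 0.352 CPM (5 and 5 reads) in PNPi+dG/rG+polyU, and 0.266 and 0.337 CPM (5 and 11 reads) in R848. The vehicle and PNPi+dG/rG libraries did not overlap with the other 6. From the summed reads, vehicle exceeded polyU 28.8-fold (95% counting interval 14.4 to 67.6), PNPi+dG/rG+polyU 18.8-fold (10.0 to 39.7) and R848 21.3-fold (12.9 to 37.9), intervals that cover counting error only. The fitted log2 changes, which at such counts depend on single reads, were -5.06, -4.23 and -4.47 (limma adjusted p = 4.62e-07, 7.45e-07 and 2.32e-07). Fosb passed the filter only through vehicle and PNPi+dG/rG, where it was high, so these p-values add no support to the falls. In polyU the change was -4.25 without replicate 1 and -5.86 without replicate 2.

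Per kilobase, Fos gave 91.2% and 90.7% of the FOS genes in vehicle, 96.3% and 97.1% in polyU, 91.3% and 92.4% in PNPi+dG/rG and 86.8% and 82.5% in PNPi+dG/rG+polyU. In R848 it gave 36.5% and 37.1%, and Fosl2, at 7.68% and 8.15% in vehicle, gave 63.5% and 62.8%. The summed FOS level was 85.9 and 89.7 CPM per kilobase in R848, close to the 89.9 and 90.1 of vehicle, whereas it was 28.2 and 27.3 in PNPi+dG/rG+polyU. Lengths were those of all annotated exons of a gene merged, 9680 bases for Fosl2 and 2352 bases for Fos. The shares and sums of the FOS and JUN genes depend on this choice of length. The log2 ratio of Fosl2 to Fos CPM within a library was -1.53 and -1.43 in vehicle and 2.84 and 2.80 in R848.

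**Figure D2:**
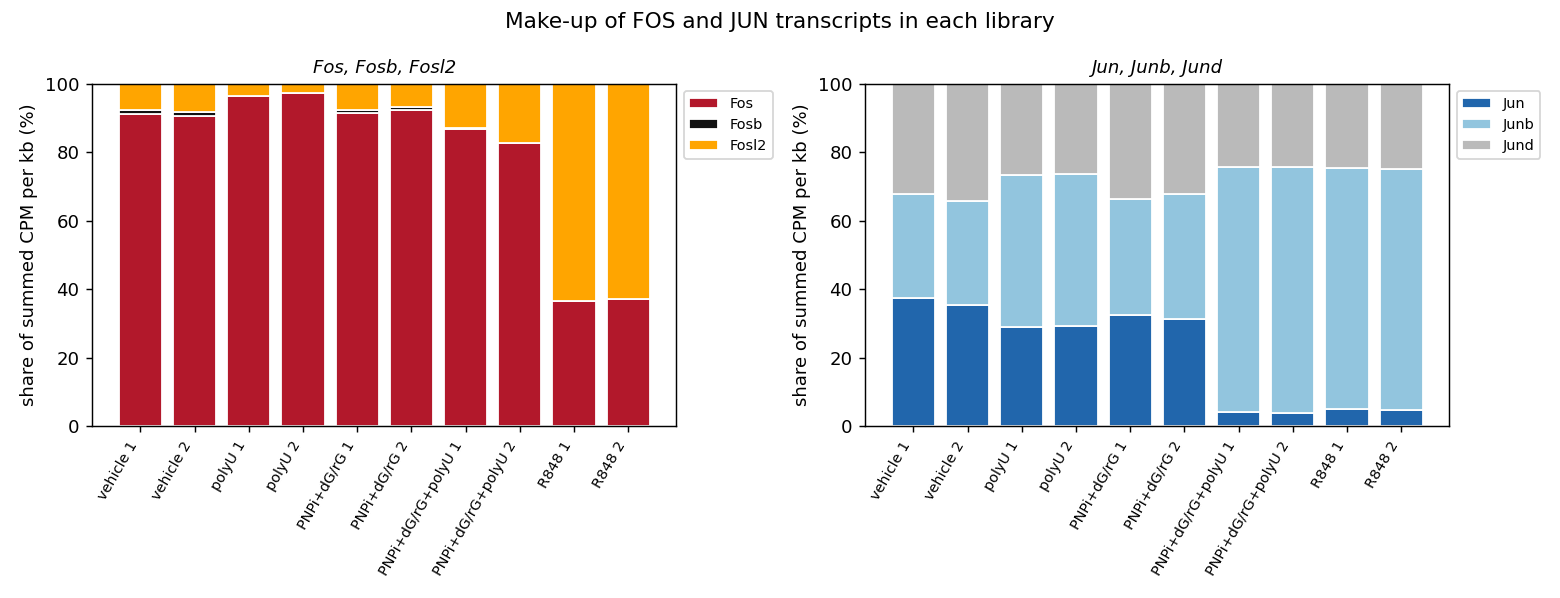
Share of the summed CPM per kilobase of exon (%) held by each FOS gene (left) and JUN gene (right) in each of the 10 libraries. Junb takes 70.2% to 71.8% of the JUN genes in the PNPi+dG/rG+polyU and R848 libraries, and Fosl2 62.8% to 63.5% of the FOS genes in the R848 libraries.

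Atf3, a stress-induced repressor of inflammatory genes, was highest in PNPi+dG/rG+polyU and lowest in R848. Atf3 (ENSMUSG00000026628, chr1:191170296-191218039, minus strand) was at 295 and 320.1 CPM in vehicle, 246 and 292 CPM in polyU, 313 and 306 CPM in PNPi+dG/rG, 398 and 391 CPM in PNPi+dG/rG+polyU, and 73.4 and 78.1 CPM in R848. The PNPi+dG/rG+polyU libraries were the highest and the R848 libraries the lowest, without overlap with any other group. Atf3 fell by 2.02 in R848 (SE 0.07, limma adjusted p = 3.46e-12), or by 1.43 with centred libraries. The PNPi+dG/rG+polyU level was 0.36 above vehicle (SE 0.07, adjusted p = 3.52e-04), well under 2-fold.

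The EGR genes were lower in level and did not move together. Egr1 (ENSMUSG00000038418, chr18:34859823-34864984, plus strand), which is induced by growth factors and phorbol esters in most cells, was at 4.66 and 4.44 CPM in vehicle (83 and 79 reads), 3.64 and 3.14 CPM in polyU, 9.79 and 8.48 CPM in PNPi+dG/rG, 9.77 and 8.93 CPM in PNPi+dG/rG+polyU, and 13.0 and 14.8 CPM in R848. All 6 libraries with PNPi+dG/rG or R848 lay above all 4 others. Egr1 rose by 1.61 in R848 (SE 0.15, limma adjusted p = 4.35e-08). The rises in PNPi+dG/rG (1.00, SE 0.15, adjusted p = 0.00529) and PNPi+dG/rG+polyU (1.04, SE 0.15, adjusted p = 1.10e-05) sat on the 2-fold threshold. The PNPi+dG/rG call was lost at 0.97 with centred libraries, at 0.90 without PNPi+dG/rG replicate 1 (adjusted p = 0.0613) and at 0.97 without vehicle replicate 2, and the PNPi+dG/rG+polyU call at 0.97 without its replicate 1. PolyU gave -0.43 (SE 0.15, adjusted p = 0.0286).

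Egr2 (ENSMUSG00000037868, chr10:67535475-67542188, plus strand), which is needed for myelination and also marks alternatively activated macrophages, was at 25.1 and 25.6 CPM in vehicle, 12.4 and 13.6 CPM in polyU, 24.0 and 24.5 CPM in PNPi+dG/rG, 14.2 and 13.5 CPM in PNPi+dG/rG+polyU, and 8.44 and 8.42 CPM in R848. The order was vehicle and PNPi+dG/rG, then the groups with polyU, which overlapped, then R848. Egr2 fell by 1.59 in R848 (SE 0.09, limma adjusted p = 2.13e-10), a fall just under 2-fold with centred libraries. In polyU it was 0.97 below vehicle (SE 0.09, adjusted p = 8.46e-07) and in PNPi+dG/rG+polyU 0.87 below (adjusted p = 6.01e-07), both under 2-fold. The polyU difference passed the threshold at -1.01 with centred libraries and at -1.03 without polyU replicate 2.

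Egr3 (ENSMUSG00000033730, chr14:70077203-70082614, plus strand), a relative of EGR2 with roles in lymphocytes and muscle spindles, was at 1.46 and 2.14 CPM (26 and 38 reads) in vehicle, 0.0569 and 0.0582 CPM (1 read each) in polyU, 3.02 and 2.91 CPM (116 and 109 reads) in PNPi+dG/rG, 0.283 and 0.0704 CPM (4 and 1 reads) in PNPi+dG/rG+polyU, and 0.478 and 0.398 CPM (9 and 13 reads) in R848. In CPM the groups did not overlap, but the counts behind 3 of them were small. PolyU and PNPi+dG/rG+polyU shared a count of 1 read, which differed in CPM only through the depth of the libraries. Summed vehicle reads exceeded those of polyU 31.3-fold (95% counting interval 8.31 to 264), of PNPi+dG/rG+polyU 10.2-fold (4.15 to 32.4) and of R848 4.21-fold (2.56 to 7.17). The fitted log2 changes were -4.94, -3.64 and -2.02 (limma adjusted p = 2.28e-05, 1.36e-04 and 0.00999). As with Fosb, the filter was passed only through vehicle and PNPi+dG/rG, so these p-values add no support to the falls. The PNPi+dG/rG+polyU change was -4.65 without replicate 1 and -2.64 without replicate 2. The R848 call was lost without vehicle replicate 2 (-1.74, adjusted p = 0.0770) and with centred libraries (-1.42, adjusted p = 0.0594).

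**Figure D3:**
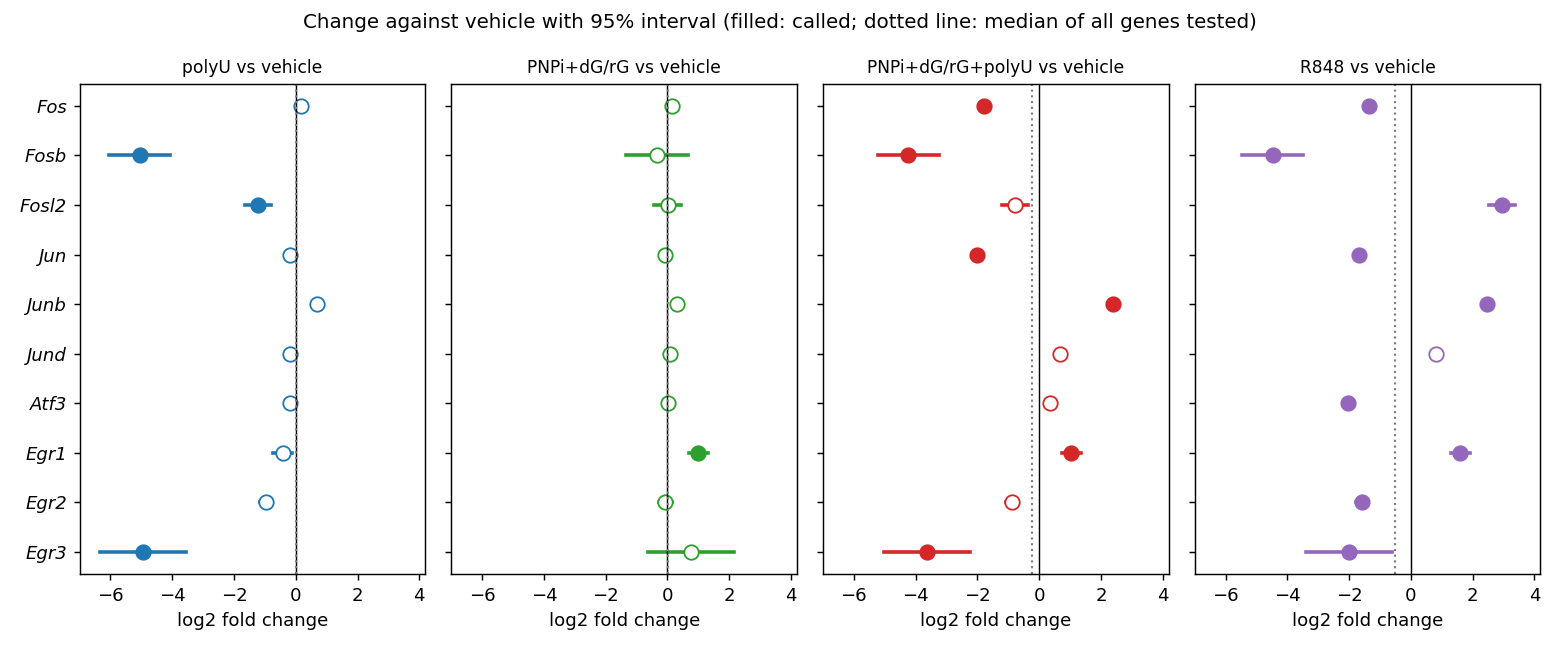
Log2 fold change against vehicle of the 10 genes under each of the 4 treatments (points) with 95% intervals from limma (bars). Filled points passed adjusted p under 0.05 and 2-fold, and the dotted line is the median of all 11978 genes tested, -0.22 in PNPi+dG/rG+polyU and -0.50 in R848.

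Apart from Fosb and Egr3, polyU alone lowered Fosl2 and raised no member past 2-fold. Fosl2 was thus 1 of 8 members that fell, where 0.776% of the 11978 genes tested fell, and its call was lost without polyU replicate 2, as above. No member rose where 3.21% of genes did. With adjusted p under 0.05 and any size, 7 of these 8 differed, against 39.3% of genes, Jund being the exception (-0.18, limma adjusted p = 0.0540). The median log2 change was -0.19 over the 8 members and 0.02 over all genes.

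PNPi+dG/rG alone moved only Egr1 past both thresholds. Egr1 rose, the call at the threshold described above, and no other member was called, where limma called 0.0668% of genes higher and 0.00835% lower. The unadjusted p was under 0.05 for 1076 of the genes tested. The largest other values were Egr3 at 0.75 (SE 0.65, adjusted p = 0.828), Fosb at -0.34 (SE 0.46, adjusted p = 0.915) and Junb at 0.31. From the summed reads, the ratio of vehicle to PNPi+dG/rG was 0.605 for Egr3 (95% counting interval 0.451 to 0.802). For Fosb it was 1.255 (1.064 to 1.478). These intervals cover counting error only. Junb passed the adjusted p (SE 0.05, limma adjusted p = 0.0109) but was under 2-fold. The 95% interval was 0.02 to 0.26 for Fos, -0.19 to 0.02 for Jun and -0.42 to 0.43 for Fosl2.

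PNPi+dG/rG+polyU raised 2 members, Junb and Egr1, where 8.12% of genes rose, and lowered 2, Jun and Fos, where 14.3% fell. The median log2 change was -0.21 over the 8 members and -0.22 over all genes. R848 raised 3 members, Fosl2, Junb and Egr1, where 8.89% of genes rose, and lowered 4, Atf3, Jun, Egr2 and Fos, where 30.3% fell. There the median was -0.26 over the 8 members and -0.50 over all genes, a shift that the falls include. With each library centred on its median, R848 raised 4 of the 8 (Jund was added) and lowered 2 (Atf3 and Jun), while the split over all genes moved from 1065 higher and 3633 lower to 1792 and 2107. In PNPi+dG/rG+polyU centring left the counts of the 8 members at 2 and 2 and moved all genes from 973 higher and 1712 lower to 1192 and 1245. The R848 libraries are also those with 102.6 to 109.9 CPM of fibroblast markers, whose part in these changes was not tested. These comparisons share the vehicle libraries.

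By both thresholds, what PNPi+dG/rG did depended on polyU for 3 members. Added to polyU, it raised Junb by 1.70 (SE 0.05, limma adjusted p = 3.08e-13) and Egr1 by 1.47 (SE 0.15, adjusted p = 3.52e-07), where 5.29% of genes rose, and lowered Fos by 1.98 (SE 0.06, adjusted p = 1.13e-13) and Jun by 1.83 (SE 0.05, adjusted p = 7.55e-14), where 10.2% fell. With centred libraries Jund joined the rises at 1.13, and the split over all genes moved from 634 higher and 1219 lower to 829 and 755. The interaction term, the effect with polyU minus the effect without, was -2.12 for Fos (SE 0.08, adjusted p = 1.17e-11), -1.75 for Jun (SE 0.07, adjusted p = 2.42e-11) and 1.38 for Junb (SE 0.07, adjusted p = 5.64e-10). These were the members past both thresholds, where 4.55% of genes were called higher and 8.87% lower, a split that centring moved from 545 and 1062 genes to 751 and 567. Jund (0.77, adjusted p = 2.36e-05) and Atf3 (0.55, adjusted p = 3.87e-04) passed adjusted p under 0.05 below 2-fold, and Jund reached 1.06 with centred libraries.

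The effect of PNPi+dG/rG on Egr1 was 1.00 without polyU, at the threshold and lost under the alternatives above, and 1.47 with it, and the interaction of 0.46 (95% interval 0.03 to 0.90, limma adjusted p = 0.0713) did not pass. The PNPi+dG/rG and PNPi+dG/rG+polyU levels of Egr1 differed by 0.04 (95% interval -0.27 to 0.35). For Fosl2, Fosb and Egr3, which polyU lowered, adding PNPi+dG/rG to polyU gave 0.44 (SE 0.17, adjusted p = 0.0660), 0.83 and 1.30, and for Egr2 it gave 0.10 (SE 0.09, adjusted p = 0.391), none of them called. Without polyU replicate 2, the Fosb difference was 1.63 and its interaction 1.97, with 2 reads in the polyU library left and 5 and 5 in PNPi+dG/rG+polyU. Without PNPi+dG/rG+polyU replicate 2, the Egr3 difference was 2.30, with 4 reads in the library left and 1 and 1 in polyU. At such counts these values depend on single reads. Both genes passed the filter only through vehicle and PNPi+dG/rG.

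**Figure D4:**
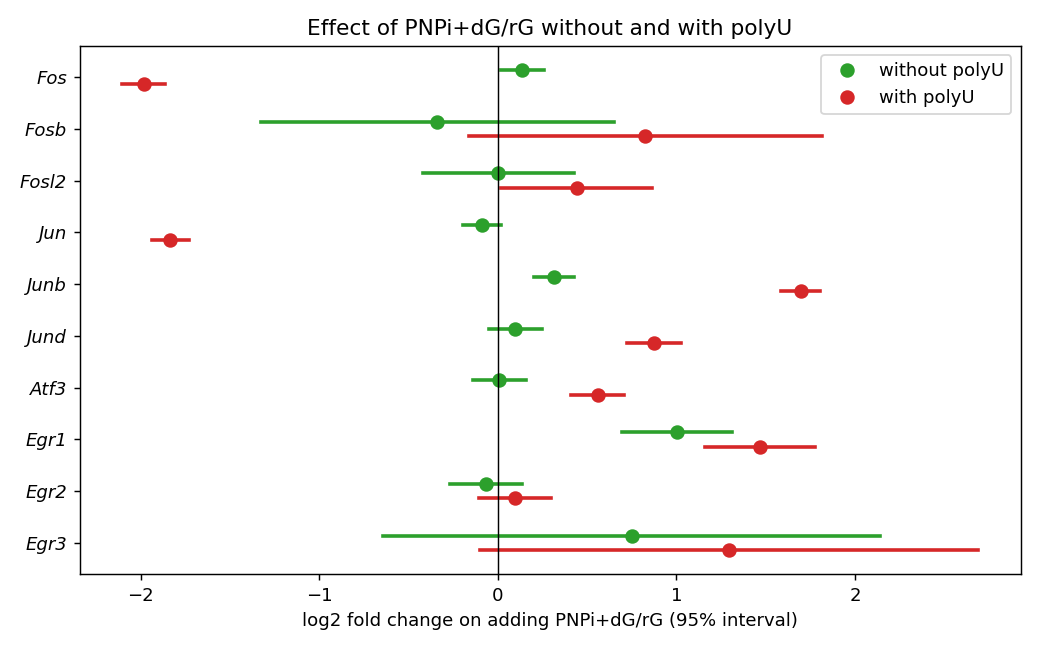
Log2 fold change on adding PNPi+dG/rG (points, with 95% intervals from limma as bars) for the 10 genes, without polyU (PNPi+dG/rG against vehicle) and with it (PNPi+dG/rG+polyU against polyU). The intervals are far apart for Fos, Jun and Junb, whose interactions were -2.12, -1.75 and 1.38, and overlap for Fosb, Fosl2, Egr1, Egr2 and Egr3.

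Between PNPi+dG/rG+polyU and R848, the differences in Junb, Jund, Fos, Jun, Egr1 and Egr2 were under 2-fold, and Fosl2 and Atf3 differed most clearly. Fosl2 was lower in PNPi+dG/rG+polyU than in R848 by 3.74 (SE 0.17, limma adjusted p = 2.03e-06), 13.3-fold, and Atf3 was higher by 2.38 (SE 0.07, adjusted p = 3.21e-12), 5.21-fold. Of the 8 members, 1 was thus called lower where 3.86% of genes were, and 1 higher where 16.9% of genes were. Egr3, under 1 CPM in both groups, was lower by 1.63 (SE 0.65, adjusted p = 0.0365). Centring moved the split over all genes from 2019 higher and 462 lower to 1194 and 852, with Fosl2 at -4.12 and Atf3 at 2.00. The Egr3 call rested on 5 reads in PNPi+dG/rG+polyU and 22 in R848. It was lost without PNPi+dG/rG+polyU replicate 2 (-0.62, adjusted p = 0.349), without R848 replicate 1 (-1.49) or 2 (-1.76, adjusted p = 0.0512), and at -1.63 without vehicle replicate 2 (adjusted p = 0.0506), PNPi+dG/rG replicate 1 (adjusted p = 0.0765) or PNPi+dG/rG replicate 2 (adjusted p = 0.0772). Junb differed by -0.07 (95% interval -0.18 to 0.04) and Jund by -0.13 (-0.28 to 0.02), values of -0.45 and -0.51 with centred libraries. Fos was 0.46 lower (adjusted p = 2.46e-06), Jun 0.35 lower (adjusted p = 1.40e-05), Egr1 0.57 lower (adjusted p = 0.00258) and Egr2 0.72 higher (adjusted p = 5.70e-06), all under 2-fold.

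Other genes of the same pathways were counted from fixed lists, and the counts read against the shares of all genes called, 8.12% higher and 14.3% lower in PNPi+dG/rG+polyU, 8.89% and 30.3% in R848, and 3.21% and 0.776% in polyU. Of the 6 tested of 7 other AP-1 zipper genes, 3 rose in PNPi+dG/rG+polyU, Batf by 4.15, Batf2 by 3.16 and Jdp2, a JUN dimerization protein, by 1.65, and 1, Fosl1 (FRA1), fell by 1.48. In R848 Batf rose by 4.26 and Batf2 by 1.54, and with centred libraries Fosl1 (1.46) and Jdp2 (1.56) were called as well. PolyU alone raised Batf by 1.34 and Batf2 by 1.46 and lowered Fosl1 by 1.28. BATF proteins lack an activation domain and bind composite AP-1 and IRF elements with JUN proteins, and Batf went from 3.48 ± 0.24 CPM (SD, n = 2) in vehicle to 62.1 ± 7.6 CPM in PNPi+dG/rG+polyU and 66.9 ± 5.8 CPM in R848. Of the EGR partners, Egr4 was at 0 reads in every library and neither corepressor, Nab1 or Nab2, was called in any comparison with vehicle, at 0.56 and 0.71 in R848 (limma adjusted p = 1.32e-07 and 2.42e-08), values that passed 2-fold with centred libraries (1.16 and 1.30). Of SRF, which drives FOS and EGR genes through CArG boxes, and its 5 cofactors, Mrtfa and Mrtfb fell in PNPi+dG/rG+polyU (by 1.79 and by 1.78) and in R848 (by 1.61 and by 1.71), where Elk1 (0.58) and Elk3 (0.72) passed 2-fold with centred libraries (1.18 and 1.31).

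Of 13 MAP kinase cascade genes, Map3k8 (TPL2), the kinase that links NF-kappaB signalling to ERK, rose by 1.43 in polyU, 3.66 in PNPi+dG/rG+polyU and 3.59 in R848. Map2k3 fell by 1.33 in PNPi+dG/rG+polyU. With centred libraries Map2k1 (0.81 in R848, 1.40 centred) and Mapk8 (0.71 and 1.30) passed 2-fold in R848 as well. Map2k6 was tested only because it reached 1 CPM in vehicle, polyU and PNPi+dG/rG, with 34 and 33 reads in vehicle, 3 and 9 reads in PNPi+dG/rG+polyU and 14 and 23 reads in R848. Its fitted changes were -2.36 and, in R848, -1.38, a call lost with centred libraries (-0.78). Of 12 other immediate early genes, Nr4a3 was tested only through the groups where it was high, with 2 and 5 reads in vehicle, 54 and 55 reads in PNPi+dG/rG+polyU and 115 and 216 reads in R848 (fitted changes of 4.44 and 5.16). Of the other 11, 5 rose and 2 fell in PNPi+dG/rG+polyU, and 6 rose and 2 fell in R848. The largest rises among them were Ier3 (3.95), Maff (2.53) and Btg2 (2.11) in PNPi+dG/rG+polyU, and Ier3 (5.18), Maff (3.42) and Btg2 (3.19) in R848. Klf2 and Klf4, transcription factors of quiescent cells, were those that fell in both. The nuclear receptor Nr4a1 fell by 1.18 in polyU, where it was the single call of that list, and PNPi+dG/rG alone gave no call in any of these lists.

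Across the 4 log2 changes against vehicle, the genes nearest to Fosl2, the member with the largest rise, were Nr4a1 (root mean square distance 0.27), Mmp9 (0.65) and Abca1 (0.71), of 8458 other genes whose mean reached 10 CPM. Nr4a1 was at -1.18 in polyU, 0.06 in PNPi+dG/rG and -0.79 in PNPi+dG/rG+polyU, and at 2.43 in R848, below the 2.96 of Fosl2. For Fosb, the member with the largest fall, the nearest of 8459 genes were Nes (1.63), Efr3b (1.65) and Nptx1 (1.69), all farther away than those of Fosl2. This is a description over 4 comparisons that share the vehicle libraries.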

How the data were processed

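BMDMs were stimulated for 4 h, and stranded libraries were made from mRNA-enriched total RNA. According to the submitters' processing notes, reads were demultiplexed with bcl2fastq 2.19.1.403 and aligned to GRCm38 with STAR 2.27a. How reads were assigned to strands is not given in the sources used here. The authors deposited a single table of normalized counts for 55573 Ensembl genes, whose values are CPM with an offset of 0.0001, since all libraries sum to the same total. Every low value was a whole multiple of what 1 read is worth (tolerance 0.05 reads), which gave the depths quoted, and 3 reads were taken as detectable.

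Log2 values were tested as deposited, with 10 libraries in 5 groups in one limma fit (R 4.3.3, limma 3.58.1, statmod 1.5.0, eBayes with trend and robust), for the 11978 genes at 1 CPM or more in at least 2 libraries. P-values were adjusted by Benjamini-Hochberg over all of them, and a gene was called at adjusted p under 0.05 and at least 2-fold. A fold change is on the scale of log2(CPM + 0.0001). The fit used the normalized values, and count models were not fitted to the recovered reads. The script was tested on simulated data. Every member is named with its values, and from each other list the called genes with the 3 largest changes in PNPi+dG/rG+polyU or R848, and those in counts of 5 or fewer. Btg2 and the genes that passed 2-fold only with centred libraries (Elk1, Elk3, Map2k1, Mapk8) were named after their values were seen. Members and lists were chosen with earlier results of these data known. Symbols, positions and exon lengths came from GENCODE M21 (Ensembl 96), and promoters from RefSeq, with sequences for 8 members. Analyses used pandas 2.3.3, numpy 2.4.6, scipy 1.17.1 and matplotlib 3.10.9.

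Alternatives were a pseudocount of 0.1 or 1, other filters on low values, libraries centred on their median, plain eBayes, fits of only the groups compared, a replicate block and leaving out each library. The same numbers 1 and 2 label libraries of every group. Over 10 pairs of same-numbered libraries of different groups, the correlation of their deviations from the group means (8459 genes whose mean reached 10 CPM) ran from -0.29 to 0.11 with a median of -0.02, so the numbers were not taken to pair the libraries.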

Additional observations from a re-analysis of the deposited data

Results flagged for a closer look

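The interaction term of the limma fit, for the effect of adding PNPi+dG/rG with and without polyU, passed both thresholds for 3 members. Of all genes tested, 4.55% were called higher and 8.87% lower in it. Jund (0.77, adjusted p = 2.36e-05) and Atf3 (0.55, adjusted p = 3.87e-04) passed adjusted p under 0.05 but were under 2-fold. Jund reached 1.06 with centred libraries. For Fos the effect with polyU minus that without was -2.12 on the log2 scale (SE 0.08, adjusted p = 1.17e-11), with an effect of 0.14 without polyU and -1.98 with it. Jun had an interaction of -1.75 (SE 0.07, adjusted p = 2.42e-11), from -0.09 without polyU and -1.83 with it. Junb had an interaction of 1.38 (SE 0.07, adjusted p = 5.64e-10), from 0.31 without polyU and 1.70 with it. For Fos, Jun and Junb the values with centred libraries were -1.83, -1.46 and 1.67. Leaving out any library kept them between -2.18 and -2.06, between -1.79 and -1.70 and between 1.31 and 1.45. The labels place DOTAP in both groups that received polyU, so the carrier and the RNA cannot be told apart in these interactions.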

How the results depend on the processing

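Of the fold changes of single members recomputed under the alternatives, 1285 kept their direction and side of the thresholds, 22 lost a call, 8 gained one and 11 changed sign, the cause of which was not tested. Those that changed sign were small or rested on few reads. In PNPi+dG/rG against vehicle, centring gave -0.023 for Atf3 and -0.030 for Fosl2, and leaving out a library gave ranges of -0.050 to 0.068 for Atf3, -0.047 to 0.051 for Fosl2 and -0.037 to 0.23 for Jund. In PNPi+dG/rG+polyU against R848, centring gave -0.14 for Fosb. The Egr3 interaction was -0.018 with a pseudocount of 0.1, -0.37 with 1, and -0.46 to 1.55 on leaving out a library. The genes called in PNPi+dG/rG against vehicle, 9 in all, were 4 with a filter on the mean, 16 with no filter, 4 with only the groups compared, 1 with a pseudocount of 0.1, 0 with 1 (where the alternative shrinks low genes by construction) and 2 to 29 on leaving out a library, with 29 without vehicle replicate 1, 24 without vehicle replicate 2 and 2 without PNPi+dG/rG replicate 2. The member called there, Egr1, made a count of 0 with centring, plain eBayes, a pseudocount of 0.1 and one of 1, and 0 to 1 on leaving out a library. In polyU 303 genes were called with a pseudocount of 1 and 478 without it. Of all 10 members, those called higher in PNPi+dG/rG+polyU against vehicle were 1 with that pseudocount and 1 to 2 on leaving out a library, and those called lower in R848 were 3 with centring, against 6 without. Members with a higher interaction were 2 with centring and 1 to 2 on leaving out a library. Members lower in PNPi+dG/rG+polyU than in R848 were 1 with no filter, with only the groups compared and with a pseudocount of 1, and 1 to 2 on leaving out a library. These counts over 10 members include Fosb and Egr3, which the counts in the sections above leave out. Of the other 8, 4 were called lower in R848 and 2 with centring, where 3633 and 2107 of 11978 genes were. The interaction was called higher for 1 and, with centring, 2 of the 8, where 545 and 751 genes were. Of the 8, 1 was lower in PNPi+dG/rG+polyU than in R848, where 462 genes were. For the other settings, no such counts of genes by direction are given here. Each fit that left out a library assumed that the lone library of its group varied like the other groups.

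With the replicate number as a block, 478 genes were called in polyU against vehicle, 10 in PNPi+dG/rG, 2679 in PNPi+dG/rG+polyU, 4688 in R848, 1850 in PNPi+dG/rG+polyU against polyU, 1598 in the interaction and 2478 in PNPi+dG/rG+polyU against R848, and no count of members called changed. Vehicle and PNPi+dG/rG had the lowest correlation, -0.29, and with the PNPi+dG/rG numbers crossed within the block, an alternative chosen after seeing the data, 482, 9, 2691, 4698, 1865, 1618 and 2482 genes were called. Count models were not fitted, neither to the deposited values, which are normalized and carry an offset, nor to the reads recovered from them. Depth limits Fosb and Egr3, at 1 to 13 reads per library in R848 and in both groups with polyU.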
